A study of Arabidopsis thaliana with 11 samples.

Results

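The *trm4a* seedlings were compared with wild type seedlings at every tRNA cytosine that had a percent methylation in both, which gave 30 of the 39 cytosines listed for the whole series. Cells marked N.D. (not determined) were dropped. These sites lay in 15 of the 24 tRNAs that carried a listed site. *trm4a* is a homozygous T-DNA insertion in *TRM4A* (AT4G40000, on chromosome 4) in the Columbia ecotype of *Arabidopsis thaliana*, represented by 1 allele and 1 library. The wild type column is the authors' mean of 3 libraries of the same ecotype, deposited without its spread. The seedling libraries were all from 10 day old seedlings. The set also held *trm4b-1*, which carries a T-DNA insertion in the paralogue *TRM4B* (AT2G22400, on chromosome 2). It further held *trdmt1*, *nsun5-2*, *nop2a-2* and the *trdmt1 trm4b* double mutant, and each of these mutants had 1 library. Wild type and *trm4b-2* buds were sequenced in a separate experiment, with 1 library each. tRNA was cut from a gel, treated with bisulfite and sequenced (RBS-seq), so that 5-methylcytosine (m5C) was read as C and other cytosines as T. *TRM4A* mRNA is not measured by these tables, so the insertion could not be checked from them, and no library lacked TRM4A and TRM4B together. The paper reports null *TRM4A* expression in the mutant by semi-quantitative RT-PCR. It also reports that the TRM4A protein lacks a sequence motif, motif I, that it calls essential for methyltransferase activity.

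TRM4, called NSUN2 in animals, is a nuclear-encoded enzyme that transfers a methyl group from S-adenosylmethionine to cytosines where the variable loop of a tRNA meets its T stem. Position C48 is the last base of the variable loop, and C49 and C50 open the T stem. C38 lies in the anticodon loop and is the target of the DNMT2 family enzyme TRDMT1, and C72 lies in the acceptor stem, where NSUN6 acts in human tRNAs. The comparison asked whether the second TRM4 gene of *Arabidopsis* matters at any of these cytosines, in particular at those that stayed methylated without TRM4B.

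The tRNAs below are those whose levels moved most in *trm4a* and those with a site retained in *trm4b-1*. Gly(CCC), which retained C38 there, is not printed. They are given as the authors' TAIR10 consensus, 5′ to 3′ in the sense of the RNA with T for U, and the capitals mark the listed cytosines.

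Val(CAC): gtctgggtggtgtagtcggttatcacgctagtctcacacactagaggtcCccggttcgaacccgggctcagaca
Thr(TGT): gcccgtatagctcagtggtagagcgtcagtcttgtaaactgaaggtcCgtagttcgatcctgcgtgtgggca
Arg(ACG): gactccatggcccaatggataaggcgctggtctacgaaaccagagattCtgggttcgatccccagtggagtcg
Gln(TTG): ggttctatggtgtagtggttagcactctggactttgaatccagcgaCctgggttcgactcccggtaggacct
Gln(CTG): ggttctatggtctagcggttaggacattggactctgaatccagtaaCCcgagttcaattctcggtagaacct
Thr(CGT): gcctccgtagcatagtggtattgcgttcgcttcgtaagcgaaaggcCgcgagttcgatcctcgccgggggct
Asp(GTC): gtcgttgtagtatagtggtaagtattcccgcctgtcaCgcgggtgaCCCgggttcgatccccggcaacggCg
Gly(GCC): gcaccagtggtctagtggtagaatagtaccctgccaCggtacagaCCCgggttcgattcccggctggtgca

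In the order printed, the capitals are C49 in Val(CAC), Thr(TGT) and Arg(ACG), C48 in Gln(TTG), C48 and C49 in Gln(CTG), and C48 in Thr(CGT). In Asp(GTC) they are C38, C48, C49, C50 and C72, and in Gly(GCC) C38, C48, C49 and C50. Each consensus stands for a family of tRNA genes. Val(CAC) pools 8 loci, the first listed being AT2G22110 at chr2:9393670-9393743, and Thr(TGT) pools 8 from AT1G05980 at chr1:1817400-1817471. Arg(ACG) pools 9 loci from AT4G31265 at chr4:15183084-15183156, and Gln(TTG) pools 7 from AT1G21420 at chr1:7499733-7499804. Gln(CTG) pools 9 loci from AT2G16240 at chr2:7039094-7039165, and Thr(CGT) pools 5 from AT1G13720 at chr1:4709635-4709706. Asp(GTC), with 25 loci from AT1G03515 at chr1:877648-877719, and Gly(GCC), with 22 from AT1G06860 at chr1:2107398-2107468, are large families. These first loci are annotated as tRNA genes, and the strand is not in the list used.

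In *trm4a* the methylation profile stayed close to wild type. Across the 30 sites the median level was 91.5% in *trm4a* and 92% in wild type. Levels ran from 20% to 100% in *trm4a* and from 23% to 98% in wild type. The level in *trm4a* was lower at 17 sites, equal at 6 and higher at 7. At 13 sites the whole percents differed by no more than 1 point and at 24 sites by no more than 5 points, and the median difference was -1 point. A difference of 20 percentage points was used as the mark of a lower or higher site. At that mark 1 of the 30 sites was lower, 3.33% of those compared, and 1 was higher, also 3.33%. Since *trm4a* had 1 library and the wild type mean came without its spread, the size of a difference could not be judged against replicates, and no test was made. Percentages came without read counts, so the depth per site is unknown, and library read totals were not used here. At the study's minimum of 5 reads per value, 1 read would move a level by 20 points, the mark used here.

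**Figure D1:**
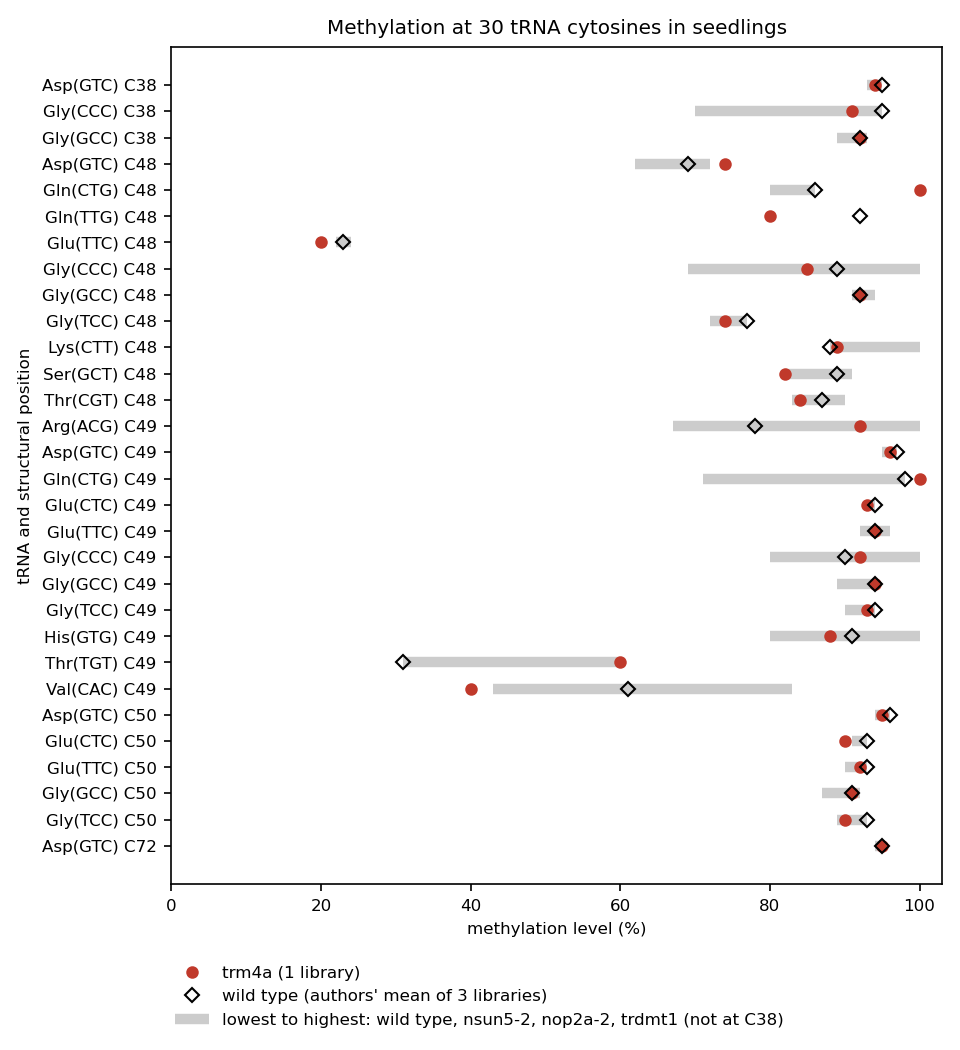
Methylation level (%, horizontal axis) at the 30 sites (rows) in *trm4a* (red points, 1 library) and wild type seedlings (open diamonds, the authors' mean of 3 libraries), with grey bars from the lowest to the highest of wild type, *nsun5-2*, *nop2a-2* and, outside C38, *trdmt1*. Red points and diamonds lie within 5 points of each other at 24 sites, and the widest gap is at Thr(TGT) C49, at 60% in *trm4a* and 31% in wild type.

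The 4 sites in the anticodon loop and the acceptor stem were near wild type. At C38, the TRDMT1 position, Asp(GTC) was at 94% in *trm4a* and 95% in wild type, Gly(CCC) at 91% against 95%, and Gly(GCC) at 92% in each. C72 of Asp(GTC), the only site at that position, was at 95% in each. None of these 4 sites differed by more than 4 points.

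At C50 the 5 sites were at 90% to 95% in *trm4a* and 91% to 96% in wild type. Asp(GTC) C50 was at 95% against 96%, Glu(CTC) C50 at 90% against 93% and Glu(TTC) C50 at 92% against 93%. Gly(TCC) C50 was at 90% against 93% and Gly(GCC) C50 at 91% in each. The differences ran from -3 to 0 points with a median of -1 point, and none of the 5 was higher in *trm4a*. Against the mean of *nsun5-2* and *nop2a-2* in place of wild type the C50 median was 1 point, so its sign depended on the reference. The same 5 cytosines were at 0% or 1% in *trm4b-1*.

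At C48 the 10 measured sites had a median of 83% in *trm4a* and 87.5% in wild type. The differences ran from -12 to 14 points with a median of -3 points, and 6 sites were lower, 1 equal and 3 higher. Glu(TTC) C48 was the lowest site of the library, at 20% in *trm4a*, 22% to 24% in *trdmt1*, *nsun5-2* and *nop2a-2*, and 23% in wild type. Ser(GCT) C48, at the end of a long variable arm, was at 82% against 89% and matched the 82% of *nsun5-2* and *nop2a-2*. With the mean of those 2 mutants as reference, the C48 median was -0.25 points.

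At C49 the 11 measured sites had a median of 93% in *trm4a* and 94% in wild type, and a median difference of 0 points. This position held the widest differences, from -21 points at Val(CAC) to 29 points at Thr(TGT). The other 9 sites differed by -3 to 14 points, and 8 of them by no more than 3 points.

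The question put to *trm4a* turned on the 7 sites that *trm4b-1* kept. TRM4B was not mutated in *trm4a*, and no library lacked both proteins. What supplies the methylation left without TRM4B was therefore not tested, and the levels below describe loss of TRM4A alone. A site was called lost in *trm4b-1* at 5% or less, reduced when above 5% but at least 20 points below wild type, and retained otherwise. The 30 sites measured in *trm4a* also had a value in *trm4b-1*, where 13 were lost, 10 reduced and 7 retained. At the 7 retained sites the levels were 84% to 100% in *trm4a* and 86% to 98% in wild type. The median difference in *trm4a* was 0 points, the range -4 to 14 points, and none was lower by as much as 5 points.

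Of those 7 sites, 4 were the C38 and C72 cytosines given above, which stood at 90% to 92% in *trm4b-1*. The other 3 lay at the TRM4 positions C48 and C49. Thr(CGT) C48 was at 84% in *trm4a*, 88% in *trm4b-1* and 87% in wild type, and the remaining seedling libraries were at 83% to 90%. The *trm4a* value thus lay inside the span of the other libraries. Gln(CTG) C48 was at 100% in *trm4a*, 71% in *trm4b-1* and 86% in wild type. Gln(CTG) C49, its neighbour, was at 100% in *trm4a*, 100% in *trm4b-1* and 98% in wild type.

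Both Gln(CTG) sites were thus at 100% in *trm4a*, a level that *trm4b-1* shared at C49 and not at C48. In the other libraries C48 was at 86% in *trdmt1*, 80% in *nop2a-2*, 88% in *trdmt1 trm4b* and 90% in wild type buds. C49 was at 71% in *trdmt1*, 80% in *nop2a-2*, 88% in *trdmt1 trm4b* and 92% in wild type buds. Gln(CTG) had no value in *nsun5-2*. How many reads stood behind its levels is unknown. Over the 29 sites with a value in wild type and at least 1 of *trdmt1* (outside C38), *nsun5-2* and *nop2a-2*, C48 of this tRNA was the only one where *trm4a* lay outside the values of these libraries by 5 points or more, standing 14 points above the highest of the 3 that had a value.

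Other cytosines that resisted loss of TRM4B could not be read in *trm4a*. Arg(TCG) C48 was at 90% in *trm4b-2* buds, 81% in wild type buds and 80% in wild type seedlings. Ile(AAT) C48 was at 25% in *trdmt1 trm4b* and 33% in wild type seedlings, and at 38% in *trm4b-2* buds and 49% in wild type buds. Neither had a value in *trm4a*.

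**Figure D2:**
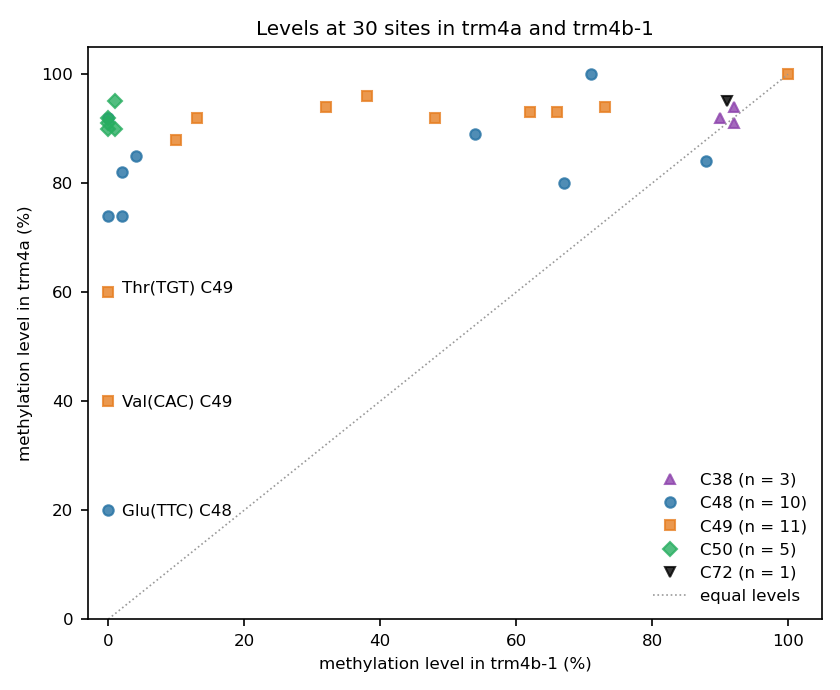
Methylation level in *trm4a* (vertical axis, %) against *trm4b-1* (horizontal axis, %) at 30 sites, 1 library each, marked by structural position, with a dotted line of equal levels. The 5 C50 sites stand at 90% to 95% in *trm4a* and at 0% or 1% in *trm4b-1*, and of the 7 sites that *trm4b-1* retained, 6 lie within 4 points of the line, with Gln(CTG) C48 29 points above it.

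The reduced sites of *trm4b-1* hold a remainder of methylation in the absence of TRM4B, and 8 of the 10 are at C49. The source of this remainder was not tested, because *trm4a* still had TRM4B. At these 8 sites *trm4b-1* was at 10% to 73%, with a median of 43%. In *trm4a* the same 8 were at 88% to 96% (median 93%), and in wild type at 78% to 97% (median 94%). Gly(GCC) C49, which kept the most of the 8 in *trm4b-1*, was at 94% in *trm4a*, 73% in *trm4b-1* and 94% in wild type. Glu(CTC) C49 was at 93%, 66% and 94%, and Gly(TCC) C49 at 93%, 62% and 94%, in *trm4a*, *trm4b-1* and wild type. At these 3 sites *trm4a* was within 1 point of wild type. In *trdmt1 trm4b*, which also lacks TRM4B, they were at 81%, 75% and 64%, and only Gly(TCC) was low enough to be called reduced. In *trm4b-2* buds they were at 82%, 80% and 75%, and none was called reduced against wild type buds. The other C49 sites of the 8 were reduced in both of these libraries.

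The other C49 sites with a remainder gave the same picture, with Arg(ACG) as the exception. Gly(CCC) C49 was at 92% in *trm4a*, 48% in *trm4b-1* and 90% in wild type, Asp(GTC) C49 at 96%, 38% and 97%, and Glu(TTC) C49 at 94%, 32% and 94%. His(GTG) C49 was at 88%, 10% and 91%. Arg(ACG) C49 was at 92% in *trm4a*, 13% in *trm4b-1* and 78% in wild type. Across *nsun5-2*, *trdmt1* and *nop2a-2* this site ran from 67% to 100%, and the 92% of *trm4a* lay within that span.

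The remaining 2 reduced sites were at C48. Lys(CTT) C48 was at 89% in *trm4a*, 54% in *trm4b-1* and 88% in wild type. In the double mutant *trdmt1 trm4b*, Lys(CTT) C48 was at 99%, so the reduction was not seen in each seedling library without TRM4B. In *trm4b-2* buds Lys(CTT) C48 was at 67%, against 90% in wild type buds. Gln(TTG) C48 was at 80% in *trm4a*, 67% in *trm4b-1* and 92% in wild type. Gln(TTG) was thus lower than wild type in both single mutants of the TRM4 genes, and it had no value in *trdmt1*, *nsun5-2* or *nop2a-2*. It was at 82% in *trdmt1 trm4b*, 84% in *trm4b-2* buds and 86% in wild type buds, so the 80% of *trm4a* lay 2 points below the double mutant.

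At the 13 sites lost in *trm4b-1*, the level there was 0% to 4%. In *trm4a* these sites were at 20% to 95%, with a median of 85%, and in wild type at 23% to 96%, with a median of 89%. Over all 23 sites lost or reduced in *trm4b-1*, *trm4a* was above *trm4b-1* at 23, by 13 to 94 points, and the median difference of *trm4a* from wild type was -1 point. By the mark of 20 points, 78.1% of the 32 sites measured in *trm4b-1* were lower than wild type, against 3.33% of the 30 in *trm4a*. Both comparisons share the wild type column, and neither has a replicate.

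**Figure D3:**
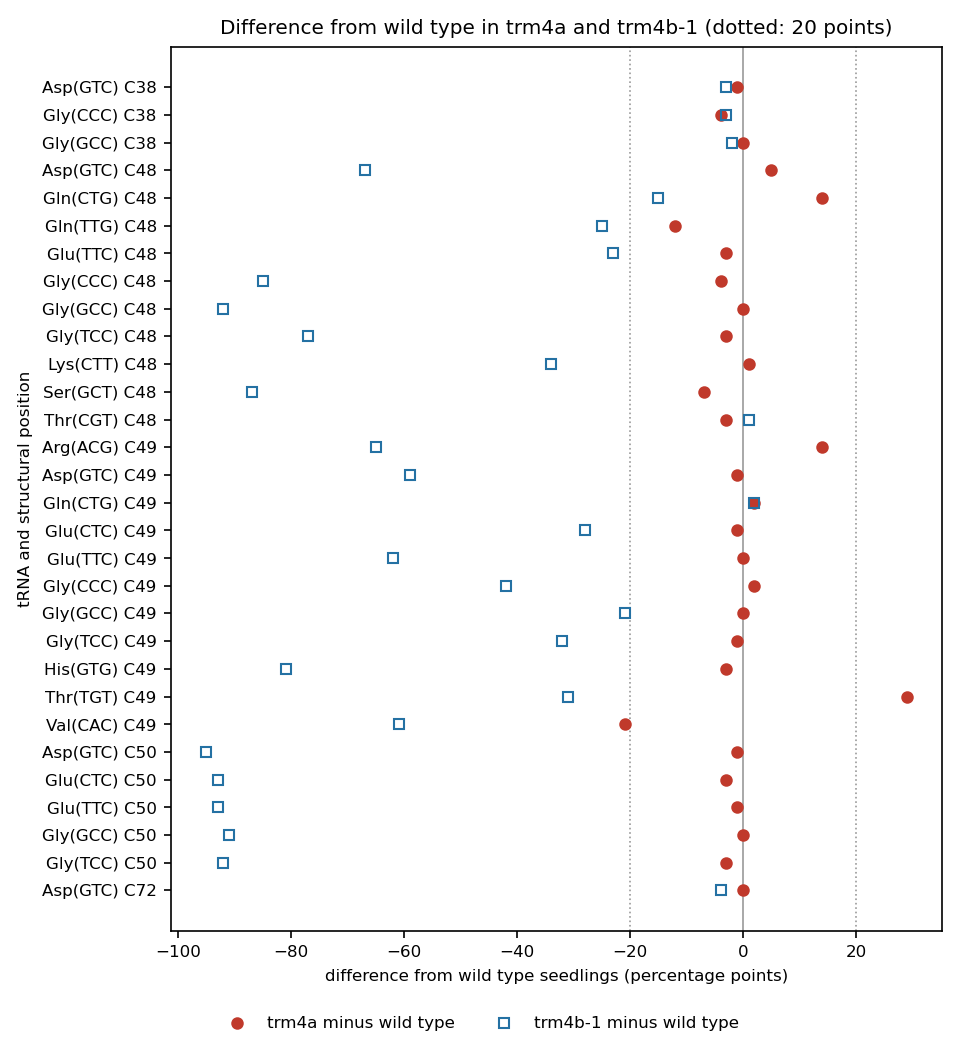
Difference from wild type seedlings in percentage points (horizontal axis) at the 30 sites (rows) in *trm4a* (red points) and *trm4b-1* (open blue squares), which share the wild type mean; dotted lines mark 20 points. In *trm4a* only Val(CAC) C49 (-21 points) and Thr(TGT) C49 (29 points) pass the dotted lines.

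Several tRNAs with more than 1 site had neighbouring cytosines at similar levels in *trm4a* and wild type, while in Gln(CTG) C48 and C49 were both at 100% in *trm4a*, against 86% and 98% in wild type. In Gly(GCC) the 4 sites C38, C48, C49 and C50 were at 92%, 92%, 94% and 91% in *trm4a*, and the whole percents of wild type were the same. In Glu(TTC) C48, C49 and C50 were at 20%, 94% and 92% in *trm4a* and 23%, 94% and 93% in wild type. The low C48 beside a high C49 was therefore present in both genotypes. In Asp(GTC) C48 was at 74%, C49 at 96% and C50 at 95% in *trm4a*, against 69%, 97% and 96% in wild type. In Gly(TCC) C48, C49 and C50 were at 74%, 93% and 90% in *trm4a* and 77%, 94% and 93% in wild type. In Gly(CCC) C38, C48 and C49 were at 91%, 85% and 92% in *trm4a* and 95%, 89% and 90% in wild type. C38 was thus 1 point below C49 in *trm4a* and above it in wild type seedlings. C38 was also below C49 in wild type buds, at 94% and 96%, and in *nsun5-2*, at 70% and 100%. Both were at 80% in *nop2a-2*.

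Among sites that share the 3 bases on either side, levels could still differ, and they did so alike in both genotypes. C48 has the same neighbours in Glu(TTC), Gly(TCC) and Gly(GCC), where it was at 20%, 74% and 92% in *trm4a* and 23%, 77% and 92% in wild type. At C49, the window printed above for Asp(GTC) and Gly(GCC) is shared with Glu(CTC), Glu(TTC) and Gly(TCC). These 5 sites were at 93% to 96% in *trm4a*, 32% to 73% in *trm4b-1* and 94% to 97% in wild type. C50 of the same tRNAs also has 1 common window and was at 90% to 95% in *trm4a*, 0% or 1% in *trm4b-1* and 91% to 96% in wild type.

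The site that was lower by the mark of 20 points was Val(CAC) C49, at 40% in *trm4a* and 61% in wild type. The other seedling libraries varied widely here, with 43% in *trdmt1* and 83% in *nsun5-2*, and *nop2a-2* had no value. The *trm4a* level was thus 3 points below that of *trdmt1*, a mutant of an enzyme that acts at C38. *trm4b-1* and *trdmt1 trm4b* were at 0%, and wild type buds at 66%.

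The site that was higher was Thr(TGT) C49, at 60% in *trm4a* and 31% in wild type. *trdmt1* was also at 60%, *nsun5-2* at 40% and wild type buds at 58%, so the wild type seedling mean was the lowest of these 5 values. The other 3 sites that differed by 10 points or more were Gln(CTG) C48 and Arg(ACG) C49, each 14 points higher in *trm4a*, and Gln(TTG) C48, 12 points lower. Of the 5 sites, 4 lacked a value in at least 1 of the 9 columns of the series, Arg(ACG) C49 being the one measured in all.

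The size of the differences followed how completely a site was measured. At the 25 sites with a value in all 9 columns, the median absolute difference between *trm4a* and wild type was 1 point and the largest 14 points. At the 5 sites that lacked a value somewhere, the median was 14 points and the largest 29 points. The *trm4a* levels at those 5 sites were 40%, 60%, 80%, 100% and 100%. The 22 sites of tRNAs with several listed sites had a median of 1 point, and the 8 sites of tRNAs with 1 listed site a median of 9.5 points. At the 19 sites at 90% or more in wild type the median was 1 point. At the 7 sites from 70% to under 90% it was 4 points, and at the 4 sites under 70% it was 13 points. Those 4 sites were split, at 3 points in Glu(TTC) C48, 5 in Asp(GTC) C48, 21 in Val(CAC) C49 and 29 in Thr(TGT) C49. Families that pool 10 or more loci, a division chosen after the values were seen, held 20 sites with a median of 1 point and a largest difference of 7 points. Families of fewer loci held 10 sites with a median of 8 points and a largest difference of 29 points. These divisions overlap and are not separate trends, since Val(CAC) C49 and Thr(TGT) C49 fall in the group with the widest median each time. Read depth per site could not be examined, and the part played by these features was not tested.

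Set beside the other single mutants at sites measured in each, the *trm4a* library was among the closest to wild type. At 22 sites outside C38 measured in each library, the median absolute difference from wild type was 1.5 points in *trm4a*, 2 in *trdmt1*, 2 in *nsun5-2*, 4 in *nop2a-2* and 66 in *trm4b-1*. The differences ran from -7 to 14 points in *trm4a*, from -11 to 3 in *trdmt1*, from -20 to 10 in *nsun5-2* and from -10 to 22 in *nop2a-2*. At these sites *trm4a* was the lowest of *trm4a*, *trdmt1*, *nsun5-2*, *nop2a-2* and wild type at 2 and the highest at 1. The corresponding counts were 1 and 1 for *trdmt1*, 3 and 4 for *nsun5-2*, 8 and 4 for *nop2a-2*, and 1 and 6 for wild type. These 22 sites leave out Val(CAC) C49, Thr(TGT) C49, Gln(TTG) C48 and both Gln(CTG) sites, which lacked a value in *nsun5-2* or *nop2a-2*. Over all 30 sites the median absolute difference in *trm4a* was 2.5 points, and the differences ran from -21 to 29 points. By the mark of 20 points, 3.33% of sites were lower and 3.33% higher in *trm4a*. The shares were 7.41% and 3.7% in *nsun5-2*, 0% and 3.7% in *nop2a-2*, and 3.7% and 7.41% in *trdmt1* outside C38 (13.3% and 6.67% with C38). The *trm4a* shares were near those of these mutants, and no cause was tested. The libraries share the wild type column and have no replicates, so these distances are descriptions.

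**Figure D4:**
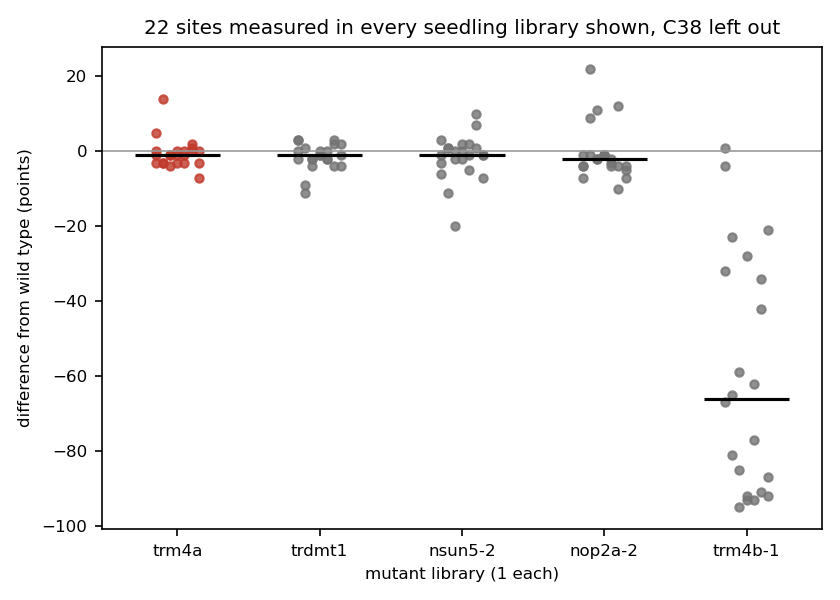
Difference from wild type seedlings in percentage points (vertical axis) at 22 sites outside C38 in 5 mutant libraries, with *trm4a* in red; each point is a site and the black bar is the median over sites. The points of *trm4a* lie between -7 and 14, and those of *trm4b-1* reach -95. Val(CAC) C49 and Thr(TGT) C49, the sites with the widest differences in *trm4a*, are not among the 22.

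Over the same 29 sites, which leave out Gln(TTG) C48, *trm4a* lay within the span of the others at 23. It was below every other at 3, by 1 point at Glu(CTC) C50, 2 points at Glu(TTC) C48 and 3 points at Val(CAC) C49. It was above every other at 3, by 14 points at Gln(CTG) C48 and by 2 points at Gln(CTG) C49 and Asp(GTC) C48. With wild type buds among the libraries compared, the sites below numbered 2 in place of 3.

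The 9 listed sites without a value in *trm4a* were 6 at C48 and 3 at C49, each the only listed site of its tRNA. They were Arg(TCG), Ile(AAT), Leu(TAA), Lys(TTT), Ser(CGA) and Ser(TGA) at C48, and Ala(AGC), Ala(CGC) and Ala(TGC) at C49. Their wild type levels ran from 33% to 100% with a median of 72%. None had a value in *nsun5-2* or *nop2a-2* either, while 2 had one in *trm4b-1* and 5 in *trdmt1 trm4b*. Whether TRM4A matters at these cytosines was not measured here, and with them the alanine, isoleucine and leucine tRNAs of the list had no site in the comparison.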

How the data were processed

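RNA bisulfite sequencing libraries of gel-purified tRNA from *Arabidopsis* were used. The authors trimmed and aligned reads in CLC Genomics Workbench (no version stated in the study's methods) to consensus sequences with each C written as T. They collapsed similar tRNA genes of TAIR10, the build in the submitters' processing notes, into 100 sequences. The deposited values are percent methylation, the share of C among C and T calls, in whole percents, with at least 5 reads per value by the study's methods. Replicates of the wild type seedlings were averaged by the authors, and each other column is 1 library. The deposited percent values were entered among columns of mixed cells because of N.D. entries. Pooling hides differences between loci, and other bisulfite-resistant cytosines also read as m5C.

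Columns were matched to genotypes by name, with 0 left unmatched. Differences are *trm4a* minus wild type in percentage points. Positions 48 to 72 were counted from the 3′ end and 38 from the anticodon, and 39 of 39 sites fell on a C. The 15 tRNAs stood for 172 loci, of which 171 are tRNA genes in RefSeq (TAIR10.1, names and gene types only). Sites named were those differing by 10 points or more, those retained in *trm4b-1*, C49 sites above 5% there, C38 and C72, Asp(GTC), the extremes, and sites without a value, with others given as examples within a tRNA. Members, lists and thresholds were chosen with earlier results of these data known. Calls were run on simulated reads at assumed depths, and since the real depth is unknown this does not give their error rate in these data. Alternatives were other differences, references, wild type minimums, summaries and site sets. Analyses used Python 3.11.15, numpy 2.4.6, pandas 2.3.3 and matplotlib 3.10.9.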

Additional observations from a re-analysis of the deposited data

How the results depend on the processing

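Of 44 alternatives (1, leaving out C38, chosen after seeing the data), 31 left a count within 1.5 times its value or moved a median by less than 2 points, 2 points being the median SD over 25 sites between the *trm4a*, *nsun5-2* and *nop2a-2* libraries. The single lower and the single higher site became 2 lower and 3 higher at a mark of 10 points, and 0 and 0 at 30 points. Both were also 0 at fully measured sites, or against the mean of *nsun5-2* and *nop2a-2*, where Val(CAC) and Thr(TGT) had no value in *nop2a-2* and dropped out. The median absolute difference of 2.5 points was 4.63 points as a mean, and 1 point at fully measured sites. Sites above every other library numbered 1 in place of 3 at fully measured sites, where Gln(CTG) drops out. Against the mean of *nsun5-2* and *nop2a-2* the median differences were 1 point at C38, -0.25 points at C48 and 1 point at C50, in place of -1, -3 and -1. The medians at sites retained, and at sites lost or reduced, in *trm4b-1* moved by less than 2 points under each alternative run. They ran from -1 to 1.14 points at retained sites, and from -1 to 0.25 points at lost or reduced sites. Since 2 points is larger than these medians, a change of sign was counted as kept. The list of sites without a value in *trm4b-1* held 0 sites with a *trm4a* value and gave no result. No paired analysis was possible because each mutant had 1 library and the wild type was deposited as a mean, which also prevented leaving out a wild type replicate. Depth per site was unknown, so what it limits could not be measured.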
